A study of Homo sapiens with 2 samples.

Results

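Cycling cardiomyocytes of blood-generating heart-forming organoids were selected as barcodes that carried both cardiac muscle and proliferation transcripts. A barcode was taken when it had 500 to 9000 detected genes, under 15% of its UMIs (unique molecular identifiers, 1 per captured transcript) from mitochondrial genes, 5 or more UMIs of MYH6, 3 or more of TNNC1 and 3 or more of MKI67 and TOP2A together. No UMI of CDH5, PTPRC or RUNX1, which mark endothelium and blood, was allowed. The rule found 101 cells among 36814 barcodes, of which 43 came from organoid 32.7 and 58 from organoid 33.10. Within the filter on genes and mitochondrial UMIs there were 34749 cells, and 4136 of these had 3 or more MKI67 and TOP2A UMIs.

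Both organoids (BG-HFOs) were collected at day 14 from the human embryonic stem cell line hES3 NKX2.5-eGFP, an established line that carries a green fluorescent reporter at the cardiac gene NKX2-5. Each was dissociated and sequenced as its own 10x Genomics 3′ library, so the 2 organoids are replicates of a single condition, with no untreated or mutant group. The organoids had grown as Matrigel-embedded aggregates in which WNT signalling was first activated and then inhibited (CHIR, then IWP2), with BMP4, bFGF, VEGF, SCF, EPO, IL-6, IL-11 and IGF-1, and later factors that included FLT3, IL-3 and SHH. The libraries held 191152562 and 233818881 UMIs over 16866 and 19948 barcodes, and the cycling cardiomyocytes 964246 and 1370813 of them. All comparisons were made between classes of cells of the same 2 organoids, with UMIs summed per class and organoid, so n = 2 throughout and a p-value measures the spread between these 2 organoids only. The sources used here do not say whether the organoids were made in separate experiments.

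Cardiomyocytes (CMs) of the early heart divide while they contract. To do so a CM copies its genome in S phase, when the enzymes of nucleotide synthesis, the replication machinery and the histones are made. It then enters mitosis under the kinase CDK1 and the B-type cyclins, and the anaphase-promoting complex acts after that entry. Cytokinesis is the step that often fails in CMs later in development, which leaves cells with more than 1 nucleus or genome copy. The sarcomere, the array of thick myosin and thin actin filaments that produces force, has to be loosened for the division plane to form, and calcium release from the sarcoplasmic reticulum drives each beat.

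The genes that chose the cells are given as a description only. MYH6, the atrial-type α-myosin heavy chain, stood at 1455 counts per 1000000 UMIs (CPM, the share of the gene in all UMIs of the class) in organoid 32.7 and 1282 in 33.10 among cycling CMs, against 2606 and 2058 in non-cycling CMs, which met the same rule with no MKI67 or TOP2A UMI (975 and 1111 cells). TNNC1, the calcium-binding troponin, was at 1534 and 1559 CPM against 2471 and 2013. MKI67, a coat protein of mitotic chromosomes, was at 195 and 158 CPM, and TOP2A, the topoisomerase that untangles replicated DNA, at 401 and 286. The threshold of 3 UMIs lay inside a continuous range, with a median of 7 MKI67 and TOP2A UMIs in each organoid. At its lower edge 10 of the 43 and 11 of the 58 members had 3 such UMIs, while 14 and 10 CMs just outside had 2 and 64 and 70 had 1. Of the members 35 and 47 carried UMIs of both genes. At the MYH6 edge, 8 and 9 members had 5 to 9 UMIs, and their TNNT2 level was 1854 and 3033 CPM. The 4 and 9 cells that failed with 3 or 4 MYH6 UMIs had 1095 and 1552 CPM.

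Cardiomyocyte identity was present beyond the genes of the rule. The 10 cardiac markers not used for selection (TNNT2, ACTN2, MYL7, MYL4, TTN, NKX2-5, ACTC1, TNNI1, RYR2 and MYBPC3) summed to 20446 CPM in organoid 32.7 and 22025 in 33.10. Every one of them was detected in both organoids, and MYL7, the atrial myosin light chain, was the most abundant (3794 and 5797 CPM). The same markers summed to 35279 and 30351 CPM in non-cycling CMs, so their share of the RNA was lower in cycling CMs in both organoids. Cycling CMs were deeper, with a median of 20651 and 21866 UMIs per cell against 10301 and 10674, and 6039 and 6209 detected genes against 3770 and 3990. Counted per cell, the 10 markers gave 458 and 521 UMIs in cycling CMs and 407 and 379 in non-cycling CMs, an order opposite to that of the CPM values. Mitochondrial UMIs were a median of 5.81% and 6.78% in cycling CMs and 7.05% and 6.55% in non-cycling CMs.

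Many of the cells also carried transcripts of other classes, and this bears on what follows. Scrublet, which scores each barcode against simulated pairs of cells, placed 17 of 43 (39.5%) and 28 of 58 (48.3%) cycling CMs among its predicted doublets, against 12.6% and 13.1% of non-cycling CMs. Of the cycling CMs 53.5% and 67.2% had 5 or more UMIs of the collagens COL1A2 and COL3A1, against 24.7% and 24.4%. A smaller group, 4 and 11 cells, had 20 or more globin UMIs, which was 9.30% and 19.0% against 4.00% and 9.63%. A further sign was a UMI of a marker gene of another class, among them PECAM1, LUM, DCN, WT1, UPK3B, PF4 and AFP. Only 15 and 12 members had none of the last 3 signs of another class (collagen, globin or marker UMIs), and 5 of these 15 and 3 of these 12 were still predicted doublets (33.3% and 25%, against 2.59% and 0.984% of non-cycling CMs without these signs). The depth of the cycling CMs moves with all of these shares, and its part in them was not tested. Results are therefore given for all cells and, where they changed, for the 27 cells without any of the last 3 signs (called cells without signs of another class below, predicted doublets among them included), whose 237319 and 188195 UMIs were compared with 502 and 508 non-cycling CMs chosen in the same way. That second selection was made after the data had been seen. It took out CMs only, as did leaving out cells with a marker of another class. Mesenchymal and endothelial cells were kept whole in both. If 10% of the RNA in a droplet were free RNA of the organoid, a median member would hold 0.310 and 0.332 MKI67 and TOP2A UMIs and 0.630 and 0.563 MYH6 UMIs, below the thresholds of the rule. The libraries shared 100 barcodes, and none of them was a member.

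Relative to non-cycling CMs, cycling CMs held more transcripts of DNA synthesis, mitosis and cytokinesis and smaller shares of several genes of contraction, calcium release and glucose use. Of 18777 tested genes 1459 (7.77%) passed, with the quasi-likelihood F-test of edgeR and p-values adjusted after Benjamini and Hochberg to under 0.05. Higher were 1041 genes (5.54%) and lower 418 (2.23%), and the median log2 fold change over all tested genes was -0.05. Without cells with a sign of another class 655 of 17214 genes passed (3.81%), with 426 higher (2.47%) and 229 lower (1.33%), and the median over all genes was -0.26. Without predicted doublets 6.34% passed (3.67% higher and 2.67% lower). With the organoid as a replicate block, which pairs the classes of 1 organoid, 2169 genes passed (11.6%), 1342 higher (7.15%) and 827 lower (4.4%). Adjusted p-values in the following paragraphs are from the edgeR fit without the block, unless the block is named. Genes transcribed together with MKI67 and TOP2A had to be higher in cells chosen on those 2 genes, so the counts for the cell-cycle lists describe the class and are not independent evidence that it cycles.

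**Figure D1:**
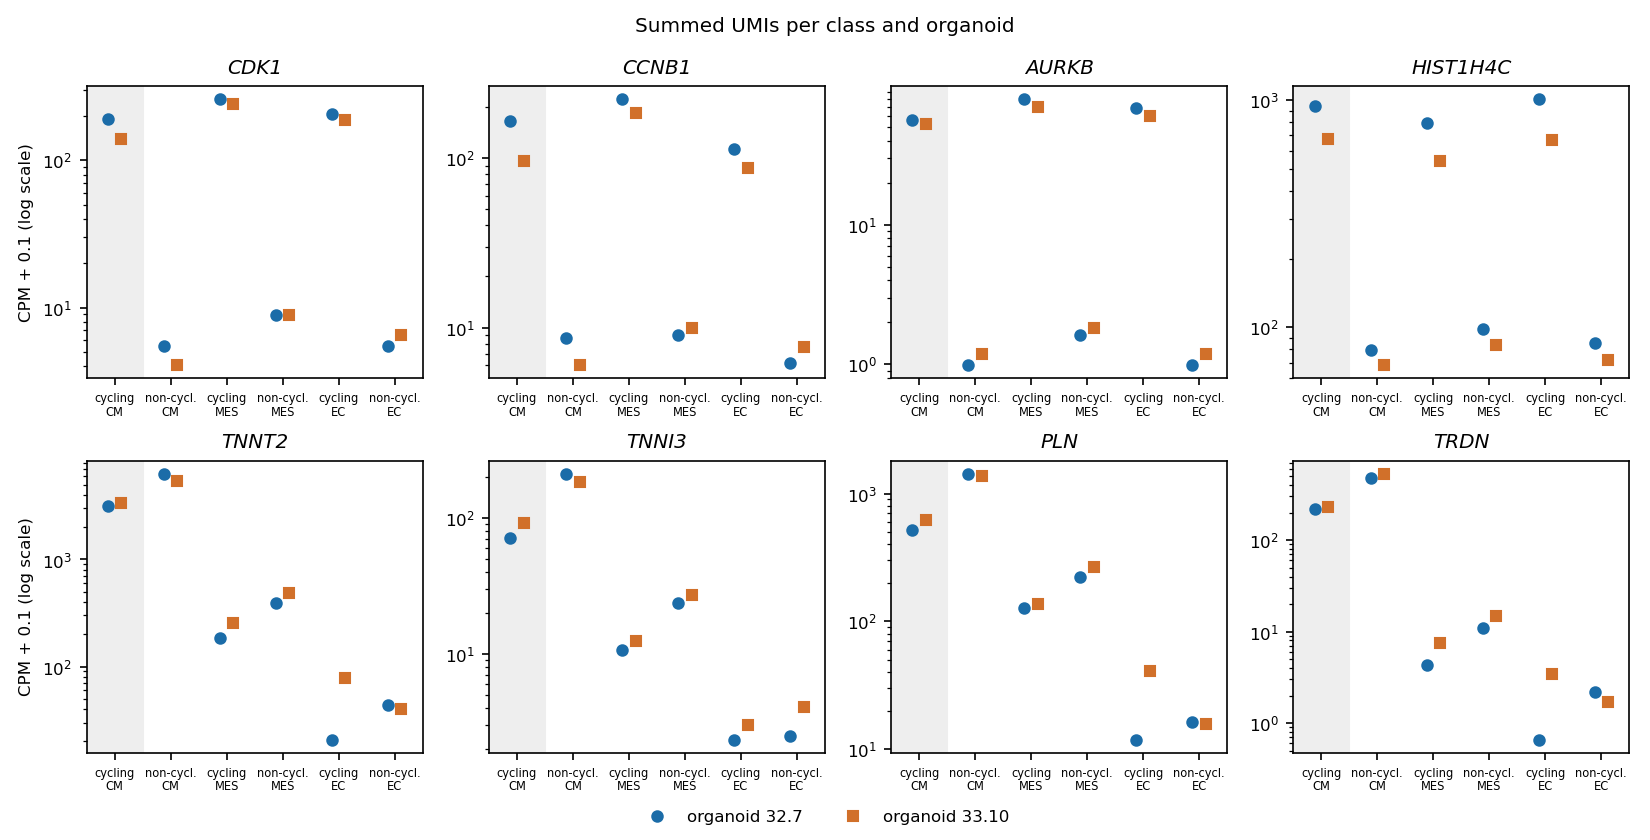
Level of 8 genes in each class of cells and organoid, as CPM + 0.1 on a log axis; circles are organoid 32.7, squares organoid 33.10, and the grey band marks cycling cardiomyocytes. The cell-cycle genes of the upper row are far higher in each cycling class, mesenchymal (MES) and endothelial cells (ECs) included, than in its non-cycling cells, and the lower row shows TNNT2, TNNI3, PLN and TRDN lower in cycling than in non-cycling CMs and higher than in MES and ECs in both organoids, PLN by the least (126 to 267 CPM in MES).

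In the S-phase list 40 of 43 genes rose and none fell, with a median log2 fold change of 2.44, and 38 rose among cells without signs of another class (median 2.91). RRM2, the regulated subunit of ribonucleotide reductase, was at 112 and 150 CPM against 3.20 and 2.38, a log2 fold change of 5.52 ± 0.27 (SE, n = 2, adjusted p = 4.02e-08). TYMS, which makes thymidylate, was at 253 and 198 CPM against 41.0 and 30.04, 6.06-fold higher. PCNA, the sliding clamp of the replicative polymerases, was at 73.6 and 93.4 CPM against 22.6 and 16.9 (log2 fold change 2.04 ± 0.18, adjusted p = 7.28e-06). For each of these genes the levels of the cycling and non-cycling sums did not overlap. The share of all genes without such overlap was not counted, so overlap is a description only, here and below. MCM5, a subunit of the replicative helicase, rose 5.59-fold, and BRIP1, a helicase that works with BRCA1, rose by 4.64 on the log2 scale. The 3 genes that did not pass were UNG (log2 fold change -0.27), UBR7 (0.52) and TIPIN (0.50). Of the 9 tested replication-dependent histone genes 8 rose (median 3.38). HIST1H4C, a histone H4 gene, stood at 938 and 673 CPM against 79.7 and 68.1, 10.4-fold higher.

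Genes of G2 and mitosis are those nearest to the selection, since MKI67 and TOP2A belong to the G2/M list, so the size of their fold changes is not compared with that of S phase. All 52 tested G2/M genes rose (median 4.22), as did all 12 late mitotic genes (median 4.22) and all 14 cytokinesis genes (median 5.31). In cells without signs of another class 42, 10 and 13 of them rose. CDK1 was at 190 CPM in organoid 32.7 and 141 in 33.10, against 5.42 and 3.96 in non-cycling CMs, which is 33.7-fold higher (log2 fold change 5.08 ± 0.19, adjusted p = 1.03e-08). CCNB1, the cyclin that activates it, was at 166 and 95.6 CPM against 8.53 and 5.91, 17.2-fold higher. Neither gene overlapped between the classes, although the organoids differed within the cycling CMs by more than for AURKB or ANLN. DLGAP5, a spindle protein, was at 153 and 91.2 CPM against 1.60 and 0.504 and had a log2 fold change of 6.83 ± 0.33. UBE2C, the ubiquitin-conjugating enzyme of the anaphase-promoting complex, rose 67.1-fold and CENPF, a kinetochore protein, 56.0-fold.

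The machinery of cytokinesis was present in the transcriptome of cycling CMs. AURKB, the kinase of the chromosomal passenger complex, was at 56.0 and 52.5 CPM against 0.888 and 1.08 (51.9-fold). ANLN, the anillin scaffold of the contractile ring, was at 119 and 113 CPM against 4.71 and 4.11 (25.3-fold). CIT, the citron kinase of the midbody, was at 57.0 and 54.0 CPM against 0.977 and 0.792 (60.0-fold). ECT2, the exchange factor that activates RhoA at the division plane, was at 102 and 71.5 CPM against 10.7 and 11.9 (7.25-fold), with the smallest log2 fold change of the list (2.86). These are RNA levels, and whether a given cell divided was not measured. Outside the cell-cycle lists the highest log2 fold changes were also of mitotic genes, such as KIF18B, a kinesin that shortens astral microtubules (66.4 and 62.0 CPM against 0.7996 and 0.504), followed by KIFC1, PBK, IQGAP3 and DEPDC1.

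Promoters of these 2 groups carry different letters, which is shown here because the groups rose together. In RefSeq promoters of build GRCh38.p14, from 250 bases before to 50 bases after the gene start, TTTGAA (the core of the cell-cycle homology region element, searched on both strands) was present in 31 of the 45 matched G2/M genes (68.9%) and in 15.4% of all 27305 promoters. In the S-phase list it was present in 6.25% of 32 matched genes. CCAAT, searched in the same way and not overlapping it in the sequences below, was in 68.9% of G2/M, 71.9% of S-phase and 35.7% of all promoters. TTTGAA and CCAAT together were in 55.6% of G2/M promoters and 6.08% of all. TTTGGCGC or TTTCCCGC, letters of the E2F element, were in 13 of 32 S-phase promoters (40.6%), in 4.44% of G2/M promoters and in 2.31% of all. Of 17 sarcomere genes 23.5% held TTTGAA and none held either E2F letters. A match is a description of the sequence and shows no binding. The promoters of 3 late mitotic genes follow with TTTGAA and CCAAT in capitals on either strand. After them stand 2 S-phase promoters with the E2F letters in capitals, read on the other strand as GCGGGAAA. Both TTTGAA and CCAAT were present in 6 of 10 matched late mitotic promoters. The examples were all chosen because they hold the letters shown in capitals. They are CCNB2 at chr15:59104896-59105195 (plus strand), PLK1 at chr16:23678639-23678938 (plus), CDC20 at chr1:43358731-43359030 (plus), PCNA at chr20:5126573-5126872 (minus) and TYMS at chr18:657403-657702 (plus), all 5′ to 3′.
CCNB2: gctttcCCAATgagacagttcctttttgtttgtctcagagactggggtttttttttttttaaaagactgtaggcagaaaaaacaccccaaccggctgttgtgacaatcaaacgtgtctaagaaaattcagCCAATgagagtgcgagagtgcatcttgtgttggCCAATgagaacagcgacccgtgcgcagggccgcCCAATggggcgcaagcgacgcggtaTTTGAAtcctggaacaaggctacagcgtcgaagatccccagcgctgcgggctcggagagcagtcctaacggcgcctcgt
PLK1: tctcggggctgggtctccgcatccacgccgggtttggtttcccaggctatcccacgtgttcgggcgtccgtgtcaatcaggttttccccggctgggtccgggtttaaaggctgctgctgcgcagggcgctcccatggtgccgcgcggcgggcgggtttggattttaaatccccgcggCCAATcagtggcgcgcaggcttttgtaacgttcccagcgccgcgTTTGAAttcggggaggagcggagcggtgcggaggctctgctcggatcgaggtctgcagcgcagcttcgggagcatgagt
CDC20: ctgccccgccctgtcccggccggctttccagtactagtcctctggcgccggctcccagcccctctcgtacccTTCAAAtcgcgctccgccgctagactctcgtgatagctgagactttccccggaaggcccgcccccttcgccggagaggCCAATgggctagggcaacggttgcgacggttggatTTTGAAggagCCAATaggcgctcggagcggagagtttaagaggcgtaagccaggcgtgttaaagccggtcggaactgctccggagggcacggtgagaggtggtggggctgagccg
PCNA: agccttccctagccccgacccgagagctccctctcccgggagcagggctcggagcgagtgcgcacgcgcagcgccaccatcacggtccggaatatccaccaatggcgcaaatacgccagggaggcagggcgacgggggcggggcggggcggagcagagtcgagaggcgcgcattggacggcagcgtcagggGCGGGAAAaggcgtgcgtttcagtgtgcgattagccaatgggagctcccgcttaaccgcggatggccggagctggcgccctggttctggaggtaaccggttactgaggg
TYMS: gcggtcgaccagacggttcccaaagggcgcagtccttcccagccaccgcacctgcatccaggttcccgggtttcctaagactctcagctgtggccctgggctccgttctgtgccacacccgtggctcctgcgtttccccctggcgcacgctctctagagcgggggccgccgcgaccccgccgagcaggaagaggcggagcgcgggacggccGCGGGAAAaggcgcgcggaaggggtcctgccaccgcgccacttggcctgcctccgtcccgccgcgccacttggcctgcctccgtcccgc
The TTTGAA of CCNB2 and of PLK1 begins 29 bases before the gene start, with CCAAT in front of it, and CDC20 holds TTTGAA on both strands. CCNB2 was at 64.3 and 59.8 CPM in cycling CMs against 3.64 and 3.10 (17.7-fold), PLK1, the polo kinase of mitosis, at 32.1 and 31.4 against 2.40 and 1.30 (16.8-fold), and CDC20, the activator of the anaphase-promoting complex, at 63.3 and 35.7 against 2.04 and 0.648 (35.6-fold).

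Cyclins that act at different points of the cycle are given as a description. The cells were chosen by MKI67 and TOP2A, so the sizes of these fold changes are not compared, and no test between cyclins was made. CCNA2, of S phase and G2, was at 86.1 and 56.9 CPM against 1.60 and 1.58 (42.1-fold), and the transcription factors MYBL2 and FOXM1, which activate late cell-cycle genes, rose 34.8- and 27.6-fold. CCNE1, of the start of S phase, rose 2.34-fold (18.7 and 11.7 CPM against 6.13 and 5.98, adjusted p = 0.0490) and CDK4 1.70-fold. Neither of the last 2 passed in cells without signs of another class, nor without predicted doublets. The D-type cyclins, which couple growth signals to the cycle, did not pass the test, with log2 fold changes of 0.10 for CCND1, -0.24 for CCND2 and -0.15 for CCND3, and CDK6 was at 159 and 134 CPM against 118 and 113 (0.27). Of the 14 cell-cycle inhibitors 1 rose and 2 fell. CDKN2C, an inhibitor of CDK4 and CDK6, was at 7.26 and 8.02 CPM against 0.267 and 0. BTG1, an anti-proliferative cofactor, was at 203 and 196 CPM against 281 and 272, and MEIS1, a homeobox factor known to restrain the CM cycle after birth, at 98.5 and 72.9 against 116 and 132. BTG1 and MEIS1 fell by 0.53 and 0.61 on the log2 scale, and neither passed in cells without signs of another class. CDKN1A (p21) and CDKN1C (p57) gave log2 fold changes of -0.13 and -0.36 and did not pass.

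Genes of receptors and pathways that are known to drive CM division are given beside the 7.77% of all genes that passed. In short lists the counts lie near that share and are no trait of these genes. Of the 12 tested genes of the Hippo-YAP pathway, which restrains heart growth, none passed the test (1 with the replicate block), and the median log2 fold change was 0.14. At an unadjusted p under 0.05 the whole table held 3991 genes, and DESeq2 called 1758. Of the 11 tested growth receptors FGFR1 alone rose (128 and 86.1 CPM against 65.9 and 68.9, a log2 fold change of 0.58), and it was at a log2 fold change of -0.20 in cells without signs of another class. ERBB4, the neuregulin receptor, was at 298 and 204 CPM against 427 and 458 (log2 fold change -0.89 ± 0.29, adjusted p = 0.0931, and 0.00924 with the replicate block), and IGF1R was at 132 and 115 against 119 and 158.

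Sarcomere genes made up a smaller share of the RNA of cycling CMs. Of the 11 tested genes of the thick filament and M-band 4 fell and none rose, with a median log2 fold change of -0.65 against -0.05 over all genes. Of the 14 tested genes of the thin filament and Z-disc 4 fell and none rose (median -0.63). TNNI3, the adult-type inhibitory troponin (ENSG00000129991, chr19:55151767-55157773), was at 70.5 CPM in organoid 32.7 and 91.2 in 33.10, against 209 and 183 in non-cycling CMs. The groups did not overlap, and TNNI3 fell by 1.32 ± 0.18 on the log2 scale (adjusted p = 0.00054), 2.49-fold lower. In cells without signs of another class it was at 147 and 95.6 CPM against 274 and 215 (adjusted p = 0.0203), and it passed in every alternative tried. With either organoid left out of the CM classes each of these is a single sum, assumed to vary like the MES and EC sums that remain in the fit. TNNI1, its fetal counterpart, was at 1964 and 2244 CPM against 3835 and 3218 and did not pass (adjusted p = 0.0595). With the replicate block, where 4.4% of all genes were lower, 7 genes of each filament list fell, TNNI1 included (adjusted p = 0.0102).

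The other called sarcomere genes depended on which cells were kept. The light chains MYL3 and MYL4 fell by 0.83 and 0.82 on the log2 scale, MYBPC3, the myosin-binding protein, by 0.89, and CSRP3, a Z-disc sensor of stretch, by 0.95. In cells without signs of another class these gave -0.36, -0.45, -0.35 and -0.66, none passed, and the medians of the 2 filament lists were -0.36 and -0.30 beside -0.26 over all genes. Without predicted doublets the medians were -0.62 and -0.80 beside -0.19, with 1 thick and 4 thin filament genes lower. Among cells of 10000 to 30000 UMIs they were -0.59 and -0.69 beside -0.09. TNNT2 was at 3169 and 3370 CPM against 6283 and 5445 and did not pass (log2 fold change -0.90 ± 0.33, adjusted p = 0.131, and 0.0202 with the replicate block). TTN, the giant spring protein (-0.65), ACTC1, the cardiac actin (-0.60), and MYH7, the β-myosin heavy chain (-0.09), did not pass either, although TTN did with the block (adjusted p = 0.0318). Per cell, the thick filament genes gave 270 and 328 UMIs in cycling CMs against 240 and 228, and those of the thin filament 359 and 389 against 305 and 277. These sums per barcode were thus not lower in cycling CMs, whose barcodes include more predicted doublets, and the part of doublets in them was not tested.

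Calcium handling showed the same direction in its share of the RNA. Per cell, its genes gave 134 and 136 UMIs in cycling CMs against 94.6 and 122. Of 11 tested genes 3 fell and none rose (median -0.66), and 5 fell with the replicate block. TRDN, triadin, which anchors calsequestrin to the release channel (ENSG00000186439, chr6:123216339-123637189), was at 219 and 231 CPM against 472 and 528. It fell by 1.21 ± 0.19 on the log2 scale (adjusted p = 0.00167), 2.31-fold lower with no overlap, and by 0.88 in cells without signs of another class (adjusted p = 0.0413). It did not pass without organoid 33.10. CACNB2, a subunit of the L-type calcium channel, was at 673 and 655 CPM against 877 and 1146 and fell by 0.66, or by 0.86 in the smaller set, but did not pass with free RNA removed (-0.71), without cells with a marker of another class (-0.57) or with either organoid left out. PLN, the phospholamban brake on the calcium pump, was at 514 and 622 CPM against 1426 and 1368 and fell by 1.35 ± 0.27 (adjusted p = 0.00718). In the smaller set it was at 544 and 1228 CPM against 1573 and 1569 and did not pass (adjusted p = 0.129). Within cells of 10000 to 30000 UMIs, where the depths of the classes are closer, 6.31% of all genes passed (4.36% higher and 1.95% lower) and 5 genes of calcium handling fell, with 1 of the thick and 3 of the thin filament.

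**Figure D2:**
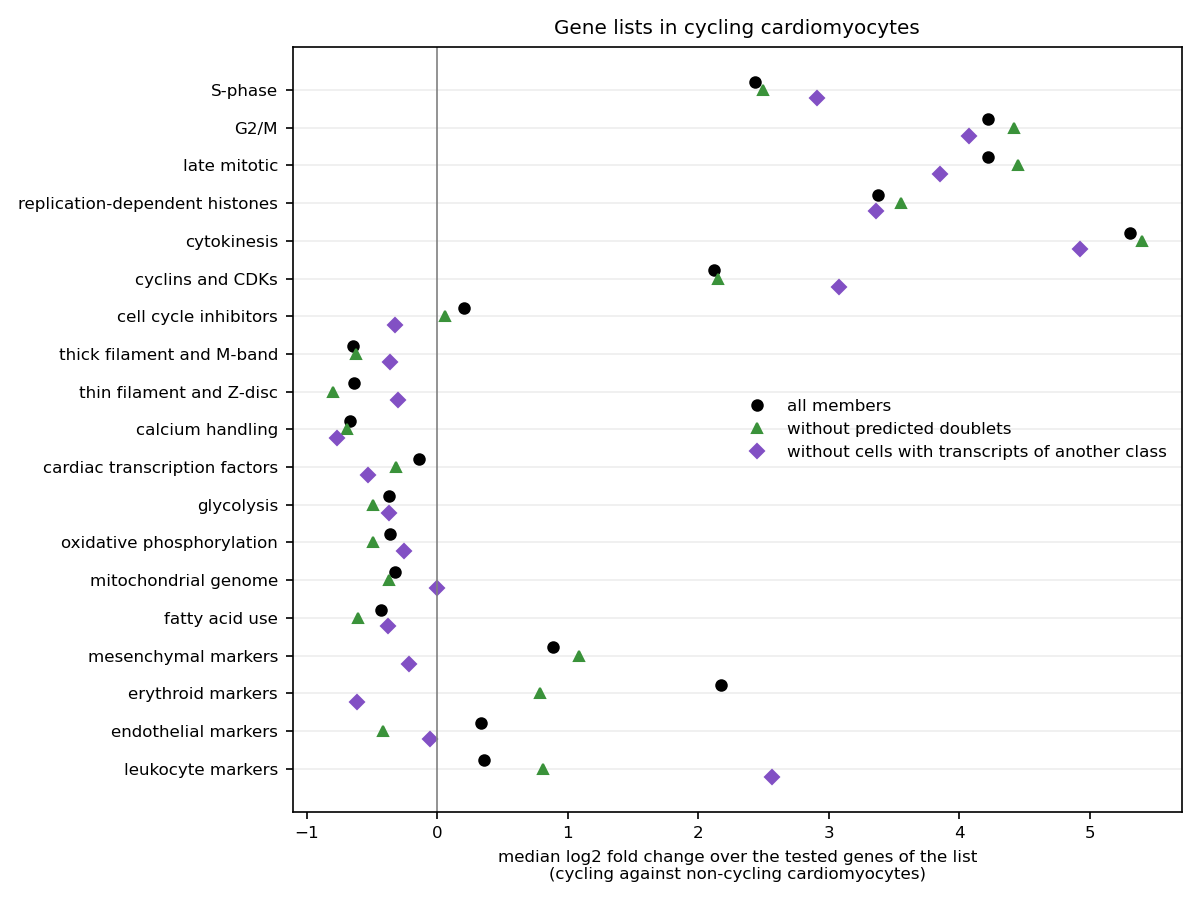
Median log2 fold change of cycling against non-cycling cardiomyocytes for 19 gene lists, with 0 marked by a line; circles are all members, triangles the cells left without predicted doublets, and diamonds the 27 members without signs of another class and their controls. Cell-cycle lists other than the inhibitors lie between 2.12 and 5.31 for all members and stay above 2 in each set, contraction and energy lists lie below 0 for all members, and the mesenchymal and erythroid lists move from above 0 to below it, while the leukocyte median, over few UMIs, is highest in the smallest set.

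Of 18 cardiac transcription factors 1 was higher and 2 lower (median -0.14), beside 5.54% higher and 2.23% lower over all genes. With the replicate block 4 were lower, beside 4.4% of all genes. NKX2-5 was at 163 and 167 CPM against 310 and 252 and fell by 0.83, and MEF2C, which activates muscle genes, was at 276 and 312 against 411 and 454 and fell by 0.61. NKX2-5 did not pass in cells without signs of another class (-0.39), whereas MEF2C did (-0.76, adjusted p = 0.0272). MEF2C in turn did not pass without predicted doublets (-0.67, adjusted p = 0.0527), with free RNA removed, at the higher MYH6 and TNNC1 limits or with either organoid left out. GATA4 (403 and 370 CPM against 330 and 380), HAND2 (134 and 124 against 135 and 133) and TBX20 (334 and 290 against 290 and 390) overlapped between the classes. The 1 higher factor was NR2F1, at 6.22 and 8.02 CPM against 2.04 and 0.937, and BMP10, a ligand of trabecular growth, also rose (5.19 and 7.29 against 2.49 and 1.66). Neither passed without predicted doublets, and neither had a UMI in the 27 cells without signs of another class. IRX3, of the trabecular and conduction lineage, was at 233 and 214 CPM against 367 and 331 and fell by 0.70, and CACNA1D, a channel of pacemaker cells, was at 121 and 142 against 206 and 248 and fell by 0.84. Neither IRX3 nor CACNA1D passed in the smaller set. With the replicate block 1 atrial gene and 2 pacemaker genes were lower and 2 trabecular genes higher. NPPA, the atrial natriuretic peptide, was at 547 and 427 CPM against 592 and 558 and did not pass.

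Genes of energy supply were lower in their share of the RNA where they changed. Per cell, glycolysis genes gave 226 and 247 UMIs in cycling CMs against 150 and 149. Those of oxidative phosphorylation gave 127 and 153 against 92.0 and 92.4. Of 17 glycolysis genes 6 fell and none rose (median -0.37). SLC2A3, a glucose transporter, was at 276 and 311 CPM against 467 and 474 and fell by 0.74 ± 0.12 on the log2 scale (adjusted p = 0.00197), and by 0.79 in cells without signs of another class (adjusted p = 0.00526), and it did not pass without organoid 32.7. PFKM, the muscle form of phosphofructokinase, fell by 0.79, with 45.6 and 41.6 CPM against 74.2 and 70.0. Of 24 genes of oxidative phosphorylation 4 fell (median -0.36), and 10 with the replicate block, among them COX6A2, the muscle subunit of cytochrome oxidase (-1.11), and SLC25A4, the ADP and ATP carrier of muscle mitochondria (-0.83). None of the 13 genes of the mitochondrial genome passed (median -0.32), 4 were lower with the block, and their median was 0.00 in the smaller set. HADHA, of fatty acid oxidation, was the 1 gene of its list of 11 to fall (-0.43). PFKM, COX6A2, SLC25A4 and HADHA did not pass in cells without signs of another class (-0.66, -0.82, -0.55 and -0.58) nor without organoid 32.7. PFKM, COX6A2 and HADHA also did not pass among cells of 10000 to 30000 UMIs.

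The genes that were lower under every alternative formed a short list. With both organoids in the fit 347 genes were higher and 36 lower under all 13 settings, and 99 of the 347 were in the cell-cycle lists. When either organoid was also left out of the CM classes, where the spread comes from the MES and EC sums alone, 282 higher genes and 8 lower ones remained, the 8 being TNNI3, SEMA3A, GRIA1, ANGPT1, HIF3A, PNRC1, CLEC2A and AP001528.1. Of these, ANGPT1, HIF3A, PNRC1, CLEC2A and AP001528.1 were singled out after their values were seen. SEMA3A, a repulsive guidance ligand that patterns cardiac nerves, was at 155 and 141 CPM against 287 and 361, 2.29-fold lower (adjusted p = 0.000283). GRIA1, a glutamate receptor subunit, was at 59.1 and 40.9 CPM against 135 and 171, 3.25-fold lower (adjusted p = 0.000119). ANGPT1, the ligand of the endothelial receptor TEK, was at 155 and 125 CPM against 268 and 237, 1.89-fold lower. HIF3A, a hypoxia-inducible factor, was at 88.2 and 76.6 CPM against 132 and 134, and PNRC1, a nuclear receptor cofactor, at 99.6 and 112 against 213 and 202. All 8 showed the same order of the 2 classes in each organoid, which follows from their choice with either organoid left out.

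Erythroid and mesenchymal transcripts were higher in cycling CMs and went with the cells that carried signs of another class. Of the 12 erythroid markers 9 rose (median 2.17), and they summed to 4890 and 9722 CPM against 1223 and 2219. HBZ, the embryonic ζ-globin and the most abundant of them, was at 1951 and 4278 CPM against 254 and 317. Globin UMIs lay in few cells, since the median member had 111 and 258 globin CPM and the highest 95691 and 97023. In cells without signs of another class HBZ was at 29.5 and 58.5 CPM against 47.6 and 77.5, and no erythroid gene passed. Of 8 tested mesenchymal markers 4 rose (median 0.89), and they summed to 748 and 770 CPM against 481 and 404. COL1A1, the main fibrillar collagen, was at 348 and 449 CPM against 213 and 181 (1.95-fold, adjusted p = 0.00757), and at 42.1 and 53.1 against 61.8 and 49.3 in the smaller set. TCF21 and PRRX1, transcription factors of fibroblast precursors, rose 2.54- and 3.40-fold and had no UMI in the cycling CMs of the smaller set. That set leaves out cells by their collagen and globin UMIs, so lower mesenchymal and erythroid levels in it follow from its definition.

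Markers of the remaining classes differed between the organoids in part. Of 9 tested endothelial markers TEK alone rose (21.8 and 11.7 CPM against 5.24 and 5.19), and the list summed to 283 and 260 CPM against 214 and 199, mostly EGFL7. The 8 leukocyte markers summed to 113 and 14.6 CPM against 44.8 and 42.1, with CD14 at 0 in organoid 32.7 and MPO at 0 in 33.10, and the level in 32.7 was above that of every other class compared. The 9 epicardial markers summed to 91.3 and 99.2 CPM against 79.0 and 94.5, and the 9 endoderm markers to 499.9 and 43.0 against 282 and 51.5, with AFP at 0 in 33.10. The endoderm sum of organoid 32.7 was the highest of the 6 classes. Mural markers summed to 276 and 331 CPM against 312 and 317, of which RGS5 was the most abundant, and megakaryocyte markers, with PF4 leading, to 51.9 and 422 against 247 and 807. Of the leukocyte, epicardial, endoderm and megakaryocyte markers none passed. With the block 2 epicardial and 1 endoderm gene were higher and 1 megakaryocyte gene lower. PDGFRB was the 1 mural gene that rose. Directions turned for PDGFRB in cells without signs of another class (-5.86, on no or few UMIs). TEK turned without cells with a marker of another class (-0.45).

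Members differed widely among themselves in their cardiac content. Sarcomere genes without MYH6 and TNNC1 ranged in organoid 32.7 from 5714 to 99455 CPM per cell with a median of 27455, and in 33.10 from 7647 to 65396 with a median of 27467. The medians of non-cycling CMs were 50536 and 40166. Members with more collagen had less of the sarcomere, with Spearman's rho over cells of -0.63 (43 cells) and -0.46 (58 cells). Both levels are shares of the same total of UMIs, and the part of this in the relation was not tested. The late mitotic level bore little relation to the sarcomere level (rho -0.09 and 0.20, and 0.19 and -0.25 in the 15 and 12 members without signs of another class).

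**Figure D3:**
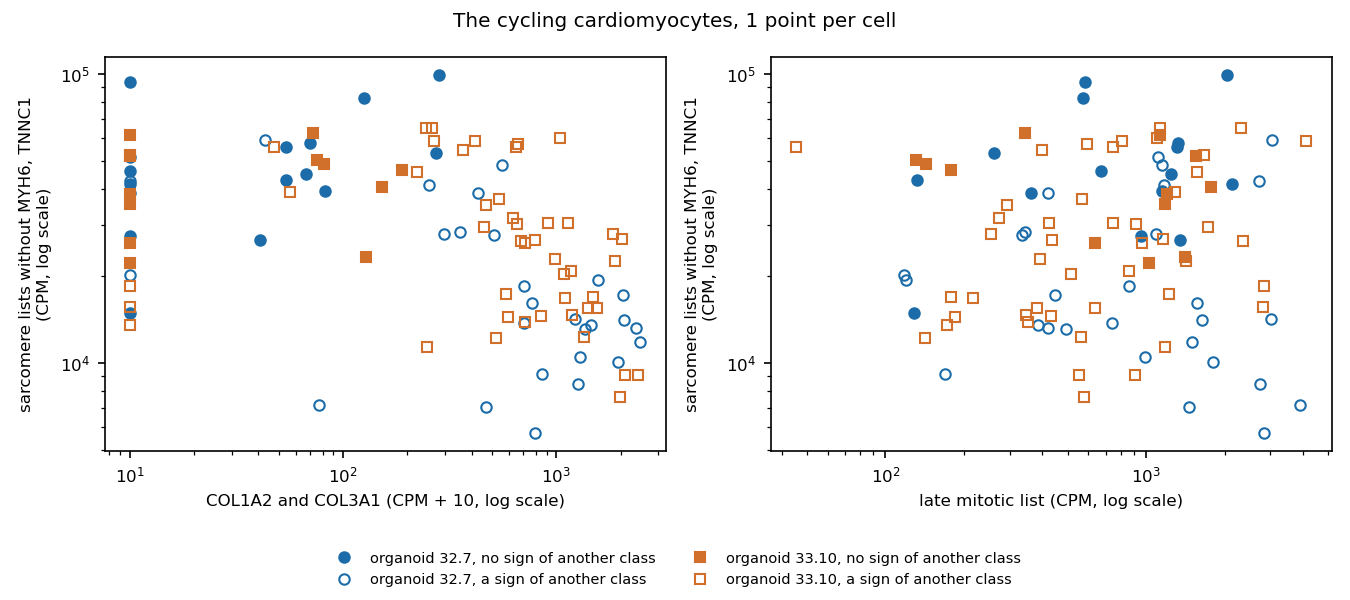
Sarcomere level of each of the cycling cardiomyocytes (CPM, log axis) against its COL1A2 and COL3A1 level (left, CPM + 10, log axis) and its late mitotic level (right, CPM, log axis); circles are organoid 32.7, squares 33.10, filled points the 27 cells without signs of another class and open points the others. Most cells with low sarcomere levels lie at high collagen levels, while high and low sarcomere levels occur across the range of late mitotic levels.

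When the members of each organoid were divided at the median late mitotic level, 21 and 29 cells were above it and 22 and 29 below. CCNB1 was at 241 and 166 CPM in the upper cells and 81.5 and 28.4 in the lower ones, and late mitotic genes, which set the division, at 1945 and 1416 against 524 and 343. S-phase genes stood at 2370 and 3011 CPM in the upper cells and 2999 and 2729 in the lower, so their order differed between organoids. PCNA was at 49.0 and 91.4 against 101 and 95.3. Sarcomere genes were at 30116 and 32994 CPM in the upper cells and 25681 and 27814 in the lower, and TNNT2 at 3323 and 3742 against 2997 and 3016. TTN was at 4401 and 2893 CPM against 3076 and 2949, so its order differed between the organoids. Mesenchymal markers, here with COL1A2 and COL3A1, which the sums of the list above leave out, were at 1464 and 1180 CPM in the upper cells and 1438 and 1782 in the lower, and their part in these differences was not tested. Upper and lower cells are ranges of a score and no types, and no test was made.

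CMs with 1 or 2 MKI67 or TOP2A UMIs, 78 and 80 cells, lay between the classes in CDK1, TNNI3, TRDN and CCNB1. CDK1 was at 25.8 and 30.4 CPM in them, TNNI3 at 134 and 131 and TRDN at 447 and 344. A CCNB1 UMI was found in 26.9% and 23.8% of these cells, in 74.4% and 70.7% of cycling CMs and in 8.31% and 6.66% of non-cycling CMs, with median depths of 10831 and 14471 UMIs, 20651 and 21866, and 10301 and 10674. Non-cycling CMs were chosen by MKI67 and TOP2A alone and may hold cells in cycle, so their share is no measure of background. The order of the classes in CDK1 and CCNB1 follows from the selection by MKI67 and TOP2A UMIs. Of the CMs with 1 or 2 such UMIs 25.6% and 38.8% were predicted doublets and 70.5% and 78.8% carried a sign of another class. Such a sign was carried by 65.1% and 79.3% of cycling CMs and by 48.5% and 54.3% of non-cycling CMs.

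Of all cells that met the CM rule whatever their MKI67 and TOP2A, 3.92% (43 of 1096, exact 95% interval 2.85 to 5.25) cycled in organoid 32.7 and 4.64% (58 of 1249, 3.54 to 5.96) in 33.10. The intervals cover counting error only. The shares also depend on leaving out cells with a UMI of CDH5, PTPRC or RUNX1. In organoids 32.7 and 33.10 that step took all MYH6 and TNNC1 cells from 1630 and 1862 to 1096 and 1249. It took those with 3 or more MKI67 and TOP2A UMIs from 152 and 195 to 43 and 58, a larger loss in proportion. The part of that step in the CM shares, and in their order against MES and ECs, was not tested. Without predicted doublets the shares were 2.78% and 2.87%, and without cells with signs of another class 2.78% and 2.23%. Cycling MES were 7.77% and 11.6% of mesenchymal cells, which were defined by 5 or more COL1A2 and COL3A1 UMIs and no MYH6, CDH5, PTPRC or RUNX1 UMI. Cycling ECs were 3.93% and 5.35% of endothelial cells, with 4 or more CDH5 and PECAM1 UMIs, at least 1 of CDH5 and no MYH6, PTPRC or RUNX1 UMI. As depth differs between classes, each cell was thinned to 5000 UMIs, which left out 256 and 157 CMs, 572 and 588 MES and 120 and 169 ECs. A UMI of MKI67 or TOP2A was then seen in 7.74% and 6.78% of CMs, 13.5% and 17.5% of MES and 5.84% and 8.34% of ECs, and before thinning in 11.04% and 11.05%, 17.6% and 20.8%, and 10.5% and 12.8%. The MES intervals lay above those of CMs in both organoids, and those of CMs and ECs overlapped. With 2 organoids no test of these shares was made.

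**Figure D4:**
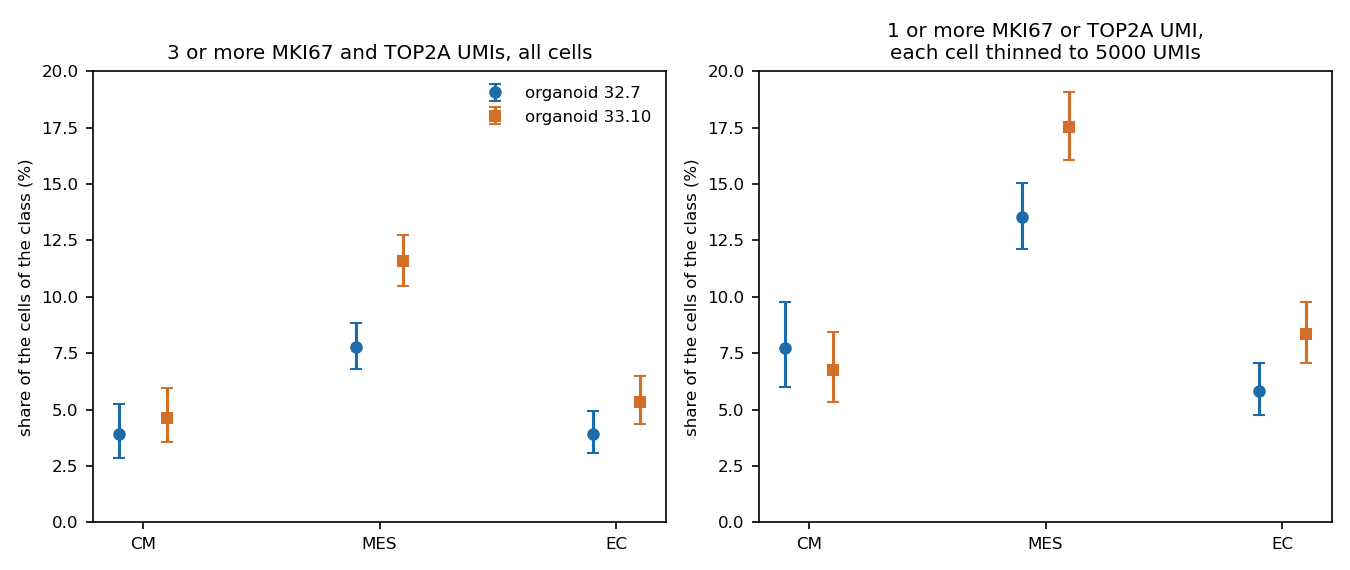
Share of cardiomyocytes (CM), mesenchymal cells (MES) and endothelial cells (EC) with 3 or more MKI67 and TOP2A UMIs (left) and, after thinning to 5000 UMIs per cell, with 1 or more (right), in per cent of the class; circles are organoid 32.7, squares 33.10, bars exact 95% binomial intervals. CMs lie between 3.92% and 4.64% on the left and between 6.78% and 7.74% on the right, below MES in both.

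Set against cycling MES (216 and 360 cells), cycling CMs differed in 2360 of 18777 genes (12.6%), with 1365 higher (7.27%) and 995 lower (5.30%). All 11 thick filament genes were higher (median log2 fold change 5.77), as were the 10 cardiac markers outside the rule (median 4.38). CMs were chosen with MYH6 and TNNC1 UMIs and MES without MYH6, so higher cardiac genes follow from the selection. TNNT2 was at 3169 and 3370 CPM against 184 and 258 (15.1-fold) and NPPA at 547 and 427 against 2.75 and 1.43. Mitochondrial supply was higher too, with 19 of 24 oxidative phosphorylation genes (median 0.78) and 12 of 13 genes of the mitochondrial genome (median 0.92). The cell-cycle genes differed less. All cycling classes were chosen by the same limit of 3 MKI67 and TOP2A UMIs, so alike levels of genes transcribed with these follow from the selection. Median depth was 20651 and 21866 UMIs in cycling CMs and 17182.5 and 15191.5 in cycling MES, and its part was not tested. Of 43 S-phase genes 2 were lower and none higher (median -0.24), and of 52 G2/M genes 8 were lower and none higher (median -0.39). With the replicate block 7 and 15 were lower, beside 1474 of all 18777 genes. CDK1 was at 190 and 141 CPM against 260 and 240 in cycling MES (log2 fold change -0.58 ± 0.15, adjusted p = 0.0238). With CMs without signs of another class set against all cycling MES, 13.3% of genes differed (6.15% higher and 7.15% lower). There 16 G2/M genes were lower. With all cells COL1A1 was at 348 and 449 CPM against 1098 and 862 (2.40-fold lower). In CMs without signs of another class, which were chosen by their collagen UMIs, its level was lower still, as given above.

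Set against cycling ECs (72 and 97 cells), 5094 genes differed (27.1%), 2648 higher (14.1%) and 2446 lower (13.0%). All 9 tested endothelial markers were lower (median -4.13), and CD93, a receptor of endothelium, was at 4.15 and 1.46 CPM against 261 and 174. ECs were chosen by CDH5 and PECAM1 and CMs without CDH5, so this too follows from the selection. LDB3, a Z-disc protein, was at 350 and 343 CPM against 0 and 0.482. Of 17 glycolysis genes 14 were higher (median 0.93), among them LDHA, lactate dehydrogenase, with 1518 and 1398 CPM against 537 and 641 (2.56-fold), and 18 of 24 oxidative phosphorylation genes (median 0.80). Of 43 S-phase genes 20 were lower and none higher (median -0.63), PCNA for instance at 73.6 and 93.4 CPM against 144 and 139, whereas 8 of 52 G2/M genes were higher and 1 lower (median 0.21). The S-phase difference was not held when CMs without signs of another class were set against all cycling ECs. There 2 genes were higher and 2 lower (median -0.05, with 8.53% of all genes higher and 10.2% lower), and PCNA had a log2 fold change of 0.05. These comparisons and the one with non-cycling CMs share the cycling CM sums.

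How far cycling changed a gene in CMs was then compared with its change in MES and in ECs, as an interaction in the same fit. Against MES 32 of 18777 genes differed (0.170%), 29 (0.154%) with a higher and 3 (0.016%) with a lower change in CMs, and against ECs 210 (1.12%), 157 higher (0.836%) and 53 lower (0.282%). These were the least stable counts. With the organoid as a replicate block they were 246 and 667. With CMs without signs of another class, and all MES and ECs, they were 0 (1773 at an unadjusted p under 0.05) and 50, with 11 higher (0.0639%) and 39 lower (0.227%). DESeq2 called 179 and 523 with all cells. With RLE scaling 52.2% of the calls against ECs were higher, in place of 74.8%. The 10 highest differences against MES included BGN, SULF1 and COL6A3, a collagen VI chain. Of the cycling CMs 53.5% and 67.2% had 5 or more COL1A2 and COL3A1 UMIs, and the part of these cells in the higher calls was not tested.

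E2F8, a repressor that ends the E2F programme of S phase, had a lower change in CMs than in either class (log2 differences -2.07 ± 0.35, adjusted p = 0.0425, and -3.90 ± 0.41, adjusted p = 0.00204). Its level in the cycling classes was alike, at 25.9 and 31.4 CPM in CMs, 24.3 and 26.1 in MES and 25.1 and 35.2 in ECs. In non-cycling cells it was at 6.40 and 5.76 CPM in CMs, 0.952 and 1.55 in MES and 0.423 and 0.348 in ECs. The levels of E2F8 thus lay apart in the non-cycling cells and close together in the cycling ones. Its difference from MES did not pass without predicted doublets, while that from ECs held in all 12 settings with both organoids. SEMA3A, lower in cycling CMs, was at 61.5 and 71.3 CPM in cycling and 57.9 and 63.8 in non-cycling MES, and at 32.9 and 22.2 against 15.9 and 18.6 in ECs, with log2 differences of -1.27 and -1.71. PEG10, an imprinted gene of retroviral origin, was at 227 and 184 CPM in cycling and 414 and 467 in non-cycling CMs, but at 87.5 and 53.9 in cycling and 32.5 and 24.96 in non-cycling ECs (log2 difference -2.30 ± 0.36, adjusted p = 0.0152). KCNQ5, a potassium channel, was at 669 and 689 CPM against 737 and 934 in CMs and 21.2 and 40.9 against 5.88 and 6.66 in ECs (-2.53).

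Some mitotic genes changed more in CMs than in ECs. SPC25, a kinetochore subunit, was at 117 and 102 CPM in cycling and 3.46 and 4.25 in non-cycling CMs, against 142 and 141 and 20.3 and 28.9 in ECs (log2 difference 2.37 ± 0.27, adjusted p = 0.00232). TACC3, a spindle protein, gave 1.25 and GAS2L3, which links actin and microtubules at the midbody, 2.90. SPC25 still passed in cells without signs of another class (3.09), and TACC3 and GAS2L3 did not. With either organoid left out no more than 4 genes passed in either comparison of changes.

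**Figure D5:**
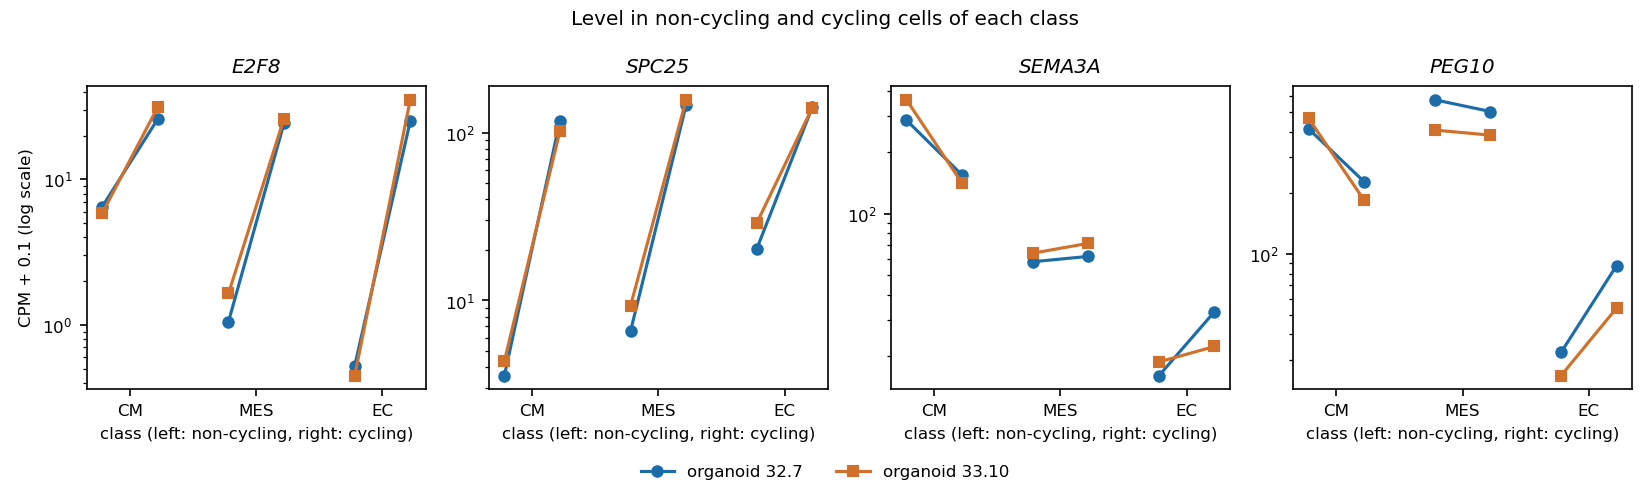
Level of E2F8, SPC25, SEMA3A and PEG10 in non-cycling (left point) and cycling cells (right point) of cardiomyocytes (CM), mesenchymal cells (MES) and endothelial cells (EC), as CPM + 0.1 on a log axis; each line joins the 2 classes of 1 organoid. E2F8 reaches the same level in all cycling classes from a higher start in CMs, SPC25 starts higher in ECs, SEMA3A is lower in cycling than in non-cycling CMs only, and PEG10 is lower in cycling CMs, slightly lower in cycling MES and higher in cycling ECs.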

How the data were processed

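Single cells of 2 organoids were measured, 1 library each. The authors' files hold the counts of UMIs per gene and barcode, as deposited from Cell Ranger 7.0.0 on GRCh38-2020-A with intronic reads included, before their aggregation to equal depth, SoupX correction and cell filter. Raw counts were used here without correction for free RNA. Counts were summed per class and organoid and tested with edgeR 4.0.16 (R 4.3.3; quasi-likelihood F-test, TMM, filterByExpr, Benjamini-Hochberg adjustment) in 1 fit of 6 classes, cycling and non-cycling CMs, MES and ECs. The rule genes were left out of the tests. DESeq2 1.42.0 was an alternative. Doublets were scored with Scrublet in scanpy 1.11.5 and kept in the main result; since its own threshold marked 0% and 20.1% of barcodes, the top 0.8% per 1000 barcodes were called instead (14.1% and 16.3%). Classes with the same number come from the same organoid, which pairs them; the deviations correlated between 0.0277 and 0.411. In data simulated for cycling against non-cycling CMs (18464 genes), 53 of 100 genes changed by a log2 of 1 and 87 of 100 changed by 2 were recovered, with 5.41% false calls. Genes named are those of 31 lists, the rule genes, and for each comparison the 10 highest and 10 lowest log2 fold changes among called genes with at least 20 CPM and the same direction in both organoids, for cycling against non-cycling CMs also outside the cell-cycle lists; exceptions are marked. Members and lists were chosen with earlier results of these data known. Promoters came from RefSeq and gene positions from the GENCODE annotation of GRCh38. A marker gene and a culture factor are not reported here.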

Additional observations from a re-analysis of the deposited data

Results flagged for a closer look

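The change of a gene with cycling differed between CMs and other classes, by a test of the difference itself (edgeR, adjusted after Benjamini and Hochberg), for 32 genes against MES and 210 against ECs. Against MES the log2 differences were -2.07 for E2F8, -1.27 for SEMA3A, -1.09 for MAP3K20, 1.92 for COL6A3 and 1.74 for MIR503HG. None of the 32 calls passed without CMs with a marker or with any transcripts of another class, and 1 passed without predicted doublets. No gene held in all 12 settings with both organoids. MAP3K20, a stress kinase, was at 230 and 244 CPM in cycling and 247 and 253 in non-cycling CMs, but at 69.8 and 72.6 against 32.4 and 38.2 in MES. COL6A3, a collagen VI chain, was at 44.6 and 43.8 CPM against 15.2 and 15.8 in CMs and at 100 and 120 against 130 and 164 in MES, and in cells without signs of another class its log2 difference was 0.39. MIR503HG, a microRNA host gene, was at 112 and 111 CPM against 45.1 and 45.4 in CMs and at 281 and 275 against 377 and 376 in MES. Against ECs the log2 differences were -3.90 for E2F8, -2.30 for PEG10, 2.37 for SPC25, 2.90 for GAS2L3, -2.53 for KCNQ5, -1.71 for SEMA3A and 1.25 for TACC3.

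Among CMs with 1 or 2 MKI67 or TOP2A UMIs, which entered no comparison, a CCNB1 UMI was found in 26.9% of 78 cells and 23.8% of 80 cells, above the 8.31% and 6.66% of non-cycling CMs. Of these cells 25.6% and 38.8% were predicted doublets, against 12.6% and 13.1% of non-cycling CMs, and 70.5% and 78.8% carried a sign of another class, against 48.5% and 54.3%. The 2 classes were set apart by their MKI67 and TOP2A UMIs, so a higher share with CCNB1, a gene transcribed with these, follows from the selection. Median depth was 10831 and 14471 UMIs against 10301 and 10674. The part of depth, doublets or other-class signs in the share was not tested.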

How the results depend on the processing

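Cycling against non-cycling CMs gave 1459 genes, 2319 with no filter on low counts, 798 without cells with a marker of another class, 655 without cells with any such transcripts and 492 to 623 with 1 organoid left out. Against cycling MES 2360 genes became 1507 among cells of 10000 to 30000 UMIs and 1172 to 1238 with 1 organoid left out, and against cycling ECs 5094 became 3228 without cells with transcripts of another class. The difference between CMs and MES (32 genes) was 83 with free RNA removed, 2 at 6 or more MKI67 and TOP2A UMIs, 179 by DESeq2, 424 with no filter, 6 within the depth range, 246 with the replicate block, 1 without predicted doublets, 0 without cells with a marker or with any transcripts of another class (1611 and 1773 at an unadjusted p under 0.05), and 0 to 1 with 1 organoid left out. That between CMs and ECs (210) was, in the same order of the first 6, 392, 81, 523, 837, 101 and 667, then 134 at the higher MYH6 and TNNC1 limits, 68 and 50 without the cells of the 2 kinds, 120 without doublets and 0 to 4 with 1 organoid left out. Shares of cycling CMs were 11.04% and 11.05% at 1 or more UMIs, 2.19% and 2.96% at 6 or more, 2.78% and 2.87% without doublets, 2.52% and 3.00% without marker cells, 2.78% and 2.23% without any transcripts of another class; thinned to 10000 UMIs the share with a UMI was 10.5% and 12.9%. Directions turned for FGFR1 (-0.20 without transcripts of another class), HBZ (-0.56 without marker cells, -0.74 without any), COL1A1 (-0.69, -0.43), TCF21 (-1.32, -7.36), PRRX1 (-1.22, -6.22), TEK (-0.45 without marker cells), BMP10 (-6.81, -6.75), NR2F1 (-5.88, -3.20 and -6.04 without doublets) and PDGFRB (-5.86 without any). Values beyond -3 rest on sums with no or few UMIs and give no size. The filters on markers and transcripts of another class took out CMs only and kept all MES and ECs. The causes were not tested, beyond the fewer cells in each subset. With the replicate block the counts against non-cycling CMs, cycling MES and cycling ECs were 2169, 3136 and 5623, and changes in lists and named genes stand beside the results where they were described. With 1 organoid left out of the CM classes, the lone sums were assumed to vary like the MES and EC sums. Of 1296 values for 94 named genes 1074 kept direction and side of the threshold, 190 lost the call, 16 gained it and 16 reversed. The number of organoids and of cells limits the precision of each value.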
